A study of Mus musculus with 2 samples.

Results

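The tumour necrosis factor (TNF) superfamily was examined after total body irradiation in stromal cells from the bone marrow of C57BL/6 mice. Members were chosen by name: every gene whose symbol in the array's annotation begins with Tnfsf or Tnfrsf, with Tnf, Lta, Ltb, Ltbr, Fas, Fasl, Cd27, Cd40, Cd40lg, Cd70, Eda2r and Ngfr added. This rule found 42 of 16390 named genes. One of them, listed as Tnfsf5ip1, is an older name of Psmg2, a proteasome assembly gene and no relative of TNF, which stood at a log2 ratio of -0.57 at day 1 and -0.41 at day 3 and is left out of the counts. The other 41 comprised 15 ligands and 26 receptors, each represented by 1 probe. Cd70 and Cd27 were listed under the older names Tnfsf7 and Tnfrsf7, and the receptor Relt as Tnfrsf19l.

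Ligands of this family are mostly membrane proteins that act as trimers, and several are cut from the cell surface to act at a distance. Their receptors fall into broad kinds. Those with a death domain in the cytoplasmic tail can recruit the adaptors FADD or TRADD and trigger apoptosis, others bind TRAF proteins and activate NF-kB, and decoy receptors hold ligand without passing on a signal. In bone marrow the family is known for inflammatory signalling by TNF, for the control of osteoclast formation by the ligand RANKL (Tnfsf11) and its decoy osteoprotegerin (Tnfrsf11b), and for B cell survival through BAFF (Tnfsf13b). Fas, Tnfrsf10b and Eda2r are textbook targets of p53, the transcription factor activated by DNA damage.

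There were 2 arrays, 1 for each time point. The day 1 array compared RNA of cells taken 1 day after 9.5 Gy with RNA of unirradiated cells, and the day 3 array did the same 3 days after 9.5 Gy. Unirradiated RNA carried Cy5 and irradiated RNA Cy3 on both, and no dye-swapped array was analysed here. All groups were wild-type C57BL/6 as far as the labels say. The series text gives 6 mice in total without saying how they were pooled, and age, sex and the method of isolating the stromal cells are not given in the sources used here. With 1 array per time point no value has a replicate error, no test was possible, and differences are described by their size alone.

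Each value is a log ratio of both channels with the median of all named genes on that array set to 0. The folds below take the logarithm to be base 2, which the sources used here do not state. Nor do they state which RNA the ratio divides by which. Going by the sequence in which the labels list them, unirradiated RNA would be on top. Positive values are read here as higher in irradiated RNA, which is likely but not settled. The basis is a list of p53 targets from which Fas, Tnfrsf10b and Eda2r were left out: its median log2 ratio was 1.45 on the day 1 array and 1.09 on the day 3 array. Mitotic genes had medians of 0.87 and -3.10. On the day 1 array both lists thus lay above 0 and closer together, so the reading is less secure there than on the day 3 array. Under the opposite reading every "higher" and "lower" below is exchanged. A gene is called higher or lower when its log2 ratio is at least 1 in size, that is 2-fold.

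The arrays differed in the ratios of pan-leukocyte and granulocyte genes. Of 18 pan-leukocyte genes, 16 had a ratio at day 1, and these 16 were without exception more than 2-fold higher, from 2.08 to 8.17 with a median of 5.11. At day 3, 11 had a ratio, of which 3 were lower and 0 higher, and their median was -0.24. Granulocyte genes had a median of 5.89 at day 1 (17 of 17 higher) and -0.70 at day 3 (1 of 13 higher, 6 lower). Other blood cell lists differed less. Macrophage genes had medians of 3.71 at day 1 (9 of 13 higher) and 0.82 at day 3 (4 of 10 higher). T and NK cell genes had medians of 2.53 at day 1 (3 of 4 higher) and 0.24 at day 3 (0 of 7 higher). Erythroid genes were low on both arrays, with medians of -3.18 at day 1 (8 of 9 lower) and -1.79 at day 3 (9 of 11 lower). B lineage genes had medians of 0.07 and -0.25. For the labelled cell type, 17 mesenchymal stromal markers were named, with a median of -0.50 over the 15 measured at day 1 and of 0.68 over the 14 measured at day 3. Since the values are ratios, the level of any marker is unknown, and fewer cells of a type and less RNA per cell cannot be told apart.

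The promoters of 4 members are printed first as examples. They are not those of the highest members throughout: Tnfsf13b (4.64), Tnfsf14 (3.56) and Tnfrsf18 (3.55) stood above Ltb (2.73) at day 1 and are not shown. Tnf and Ltb are close neighbours in the genome and were both higher at day 1, and Fas and Eda2r were the highest members at day 3. The sequences are the 250 bases before the annotated start, read on the strand of the gene, from RefSeq on GRCm38.p6: Tnf at chr17:35202008-35202257 (minus strand), Ltb at chr17:35194257-35194506 (plus), Fas at chr19:34290409-34290658 (plus) and Eda2r at chrX:97377210-97377459 (minus). Capitals mark a match to the NF-kB consensus motif on either strand.
Tnf: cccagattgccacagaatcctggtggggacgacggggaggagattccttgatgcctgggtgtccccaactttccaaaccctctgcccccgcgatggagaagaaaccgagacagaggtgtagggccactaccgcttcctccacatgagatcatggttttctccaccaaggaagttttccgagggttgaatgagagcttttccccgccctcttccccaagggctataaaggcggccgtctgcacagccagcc
Ltb: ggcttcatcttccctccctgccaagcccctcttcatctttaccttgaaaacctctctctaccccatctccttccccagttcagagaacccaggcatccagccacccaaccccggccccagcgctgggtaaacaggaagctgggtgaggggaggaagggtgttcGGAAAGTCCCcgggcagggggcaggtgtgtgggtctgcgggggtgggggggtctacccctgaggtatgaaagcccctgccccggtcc
Fas: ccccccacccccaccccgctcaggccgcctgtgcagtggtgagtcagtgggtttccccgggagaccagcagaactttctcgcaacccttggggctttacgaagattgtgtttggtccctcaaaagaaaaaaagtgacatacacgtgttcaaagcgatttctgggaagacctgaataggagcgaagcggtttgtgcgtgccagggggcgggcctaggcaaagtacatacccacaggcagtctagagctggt
Eda2r: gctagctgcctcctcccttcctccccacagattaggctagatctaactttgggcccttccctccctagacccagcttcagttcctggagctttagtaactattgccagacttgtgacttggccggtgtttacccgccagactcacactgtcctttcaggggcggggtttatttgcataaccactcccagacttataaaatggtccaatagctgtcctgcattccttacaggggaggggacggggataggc

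The single match in these windows lies in Ltb, with its first base 87 bases before the start. RefSeq windows of 300 bases (250 before to 50 after a start) were found for 32 of the 41 members, 36 windows in all because some genes have several starts. The 10-letter NF-kB consensus occurred in 4 of the 36 windows, those of Ltb, Tnfrsf8, Tnfrsf9 and Tnfrsf25, and in 8.46% of all 32851 windows. Of these 4 genes only Ltb had a ratio on either array. The 10-letter p53 half-site, also searched on both strands, occurred in windows of Fasl, Tnfsf13b and Tnfrsf25, in 4 of 36 windows against 8.36% of all. Neither Fas nor Eda2r held it in this window. A match is a description of letters only, and the absence of one says nothing of binding elsewhere in the gene.

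Ratios were not given for every member. At day 1, 27 of 41 had a ratio and at day 3, 25 of 41. There were 22 members with both, 5 with day 1 only (Fasl, Tnfsf4, Tnfsf14, Tnfrsf13b and Tnfrsf26) and 3 with day 3 only (Eda2r, Ngfr and Tnfrsf4). The 11 members with neither were the ligands Lta, Cd40lg, Cd70 and Tnfsf15 and the receptors Tnfrsf8, Tnfrsf9, Tnfrsf11a, Tnfrsf14, Tnfrsf17, Tnfrsf22 and Tnfrsf25. Several of these, such as the CD40 ligand and the costimulatory receptor Tnfrsf9, are best known from activated lymphocytes, and Tnfrsf11a is RANK, the receptor on osteoclast precursors. The share of members with no ratio on either array, 26.8%, was close to the 26.6% over all named genes. The sources used here do not say how the authors decided which entries to leave empty, so an empty entry is not read as absence.

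One day after irradiation, 5 ligands, led by Tnf and the BAFF gene Tnfsf13b, and 9 receptors, led by Tnfrsf18, were higher, and the RANKL gene Tnfsf11 and the receptor gene Tnfrsf19 were lower. Of 27 members with a ratio, 14 passed the 2-fold rule as higher and 2 as lower. Over all 10434 genes with a ratio, 19.6% were higher and 11.1% lower. The members' share was thus above that of all genes for higher and below it for lower. The family's median log2 ratio was 1.11, and 21 of the 27 members lay above 0. The 3 highest were Tnf, Tnfsf13b and Tnfsf14, and the 3 lowest Tnfrsf19, Tnfsf11 and Tnfrsf11b. When ribosomal protein genes were set to 0 in place of the median of all genes, 19 were higher and none lower.

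**Figure D1:**
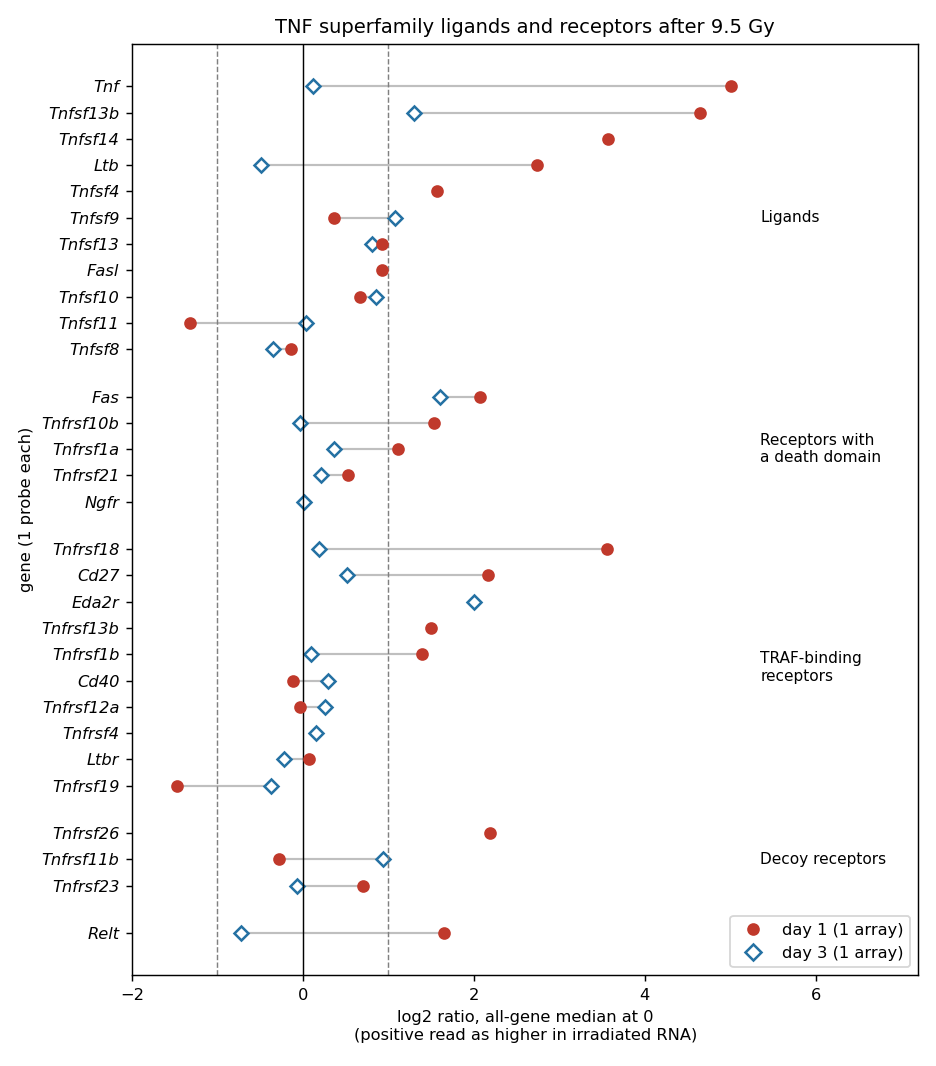
Log2 ratio (horizontal axis) of the 30 family members with a ratio, grouped by role, at day 1 (filled circles) and day 3 (open diamonds). Each point is 1 probe on 1 array, dashed lines mark 2-fold, and a missing symbol means no ratio. Most long lines run from a high day 1 value back towards 0 at day 3, as for Tnf (5.0 to 0.12), while Fas stays to the right of 2-fold at both.

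Among the ligands, 5 of 11 passed the 2-fold rule as higher at day 1 and 1 as lower, where 19.6% and 11.1% of all genes did. Tnf, the founding cytokine of the family, stood at 5.0 (32.1-fold), rank 139 of 10434 genes from the top. Tnfsf13b, which encodes the B cell survival factor BAFF, was at 4.64 (24.9-fold, rank 172). Tnfsf14, or LIGHT, a ligand of the lymphotoxin beta receptor, reached 3.56 (11.8-fold). Ltb, the membrane anchor of lymphotoxin, was at 2.73 (6.66-fold). Tnfsf4, the OX40 ligand, was 2.95-fold higher at 1.56. These 5 spread over more than 3 log2 units, so the ligands that were higher were far from alike in size. On the same array the medians were 5.11 for pan-leukocyte, 5.89 for granulocyte and 3.71 for macrophage genes. The part of these lists in the ligands' values was not tested.

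The other ligands lay closer to 0 at day 1. Fasl, the ligand that triggers apoptosis through Fas, was at 0.92, and Tnfsf13, or APRIL, a plasma cell survival factor, was also at 0.92, both just short of 2-fold. Tnfsf10, the apoptosis-inducing ligand TRAIL, was at 0.67, Tnfsf9, the 4-1BB ligand, at 0.37, and Tnfsf8, the CD30 ligand, at -0.14. Tnfsf11 was the 1 ligand at least 2-fold lower, at -1.32 (2.49-fold). RANKL, its product, is made by osteoblast lineage cells among others, and on this array the osteoblast list had a median of -1.06, with 7 of its 11 measured genes past 2-fold towards lower. The part of this list in the value of Tnfsf11 was not tested. With ribosomal protein genes at 0, Tnfsf11 stood at -0.81, within 2-fold, and the osteoblast genes shift upwards by the same amount.

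Among death domain receptors, 4 had a ratio at day 1, and 3 of them passed 2-fold as higher, where 19.6% of all genes did. Fas was at 2.07 (4.19-fold), Tnfrsf10b, the mouse TRAIL receptor, at 1.54 (2.90-fold) and Tnfrsf1a, the widely expressed receptor for TNF, at 1.11 (2.16-fold), the nearest of the 14 to the 2-fold line. Tnfrsf21, death receptor 6, was within 2-fold at 0.52. All 4 were above 0. The p53 target list that leaves these receptors out had 14 of 22 genes past 2-fold on this array, and the pan-leukocyte list 16 of 16. The median of the p53 list lies above 0 by the rule that set the sign of the ratio. Neither list's part in the receptors' values was tested.

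TRAF-binding receptors were spread widely at day 1, 4 of 8 passing 2-fold as higher and 1 as lower, where 19.6% and 11.1% of all genes did. Tnfrsf18, or GITR, a costimulatory receptor of T cells, led at 3.55 (11.8-fold). Cd27, a receptor of lymphocytes, followed at 2.17 (4.49-fold), then Tnfrsf13b, the BAFF and APRIL receptor TACI, at 1.49 (2.82-fold) and Tnfrsf1b, the second TNF receptor, which is prominent on leukocytes, at 1.39 (2.63-fold). Ltbr (0.07), a stromal receptor for lymphotoxin and LIGHT, Tnfrsf12a (-0.04), the receptor for TWEAK, and Cd40 (-0.11) were near 0. Tnfrsf19, also called TROY, was the lowest member of the family on the array at -1.47 (2.77-fold lower), and at -0.96 with ribosomal protein genes at 0. Pan-leukocyte genes had a median of 5.11 on this array, and their part in the result was not tested. B lineage genes had a median of 0.07 on this array (1 of 8 higher, 1 lower), and 3 of 4 T and NK cell genes with a ratio were higher.

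In the remaining group of decoys and receptors without a known signalling tail, Tnfrsf26 was at 2.19 (4.56-fold), Tnfrsf23, a decoy for TRAIL, at 0.70 and Tnfrsf11b, osteoprotegerin, at -0.28. Tnfrsf23 and Tnfrsf26 belong to a run of related genes with Tnfrsf22, and whether their probes tell them apart was not examined. Relt, a receptor of leukocytes and other cells, was at 1.65 (3.14-fold).

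Ligands and receptors that bind each other did not stand at like values at day 1. Of 19 textbook pairs examined, 9 had both ratios, and in 3 of these both partners passed 2-fold: Tnf with Tnfrsf1a, Tnf with Tnfrsf1b, and Tnfsf13b with Tnfrsf13b. In all 3 the ligand stood above its receptor. Ltbr, at 0.07, was near 0 beside both of its ligands, Ltb at 2.73 and Tnfsf14 at 3.56. The receptor was the higher partner in 4 of the 9 pairs: Fas (2.07) over Fasl (0.92), Tnfrsf10b (1.54) over Tnfsf10 (0.67), Tnfrsf13b (1.49) over Tnfsf13 (0.92) and Tnfrsf11b (-0.28) over Tnfsf11 (-1.32). At day 3 only 5 pairs had both ratios, and no pair had both partners past 2-fold.

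**Figure D2:**
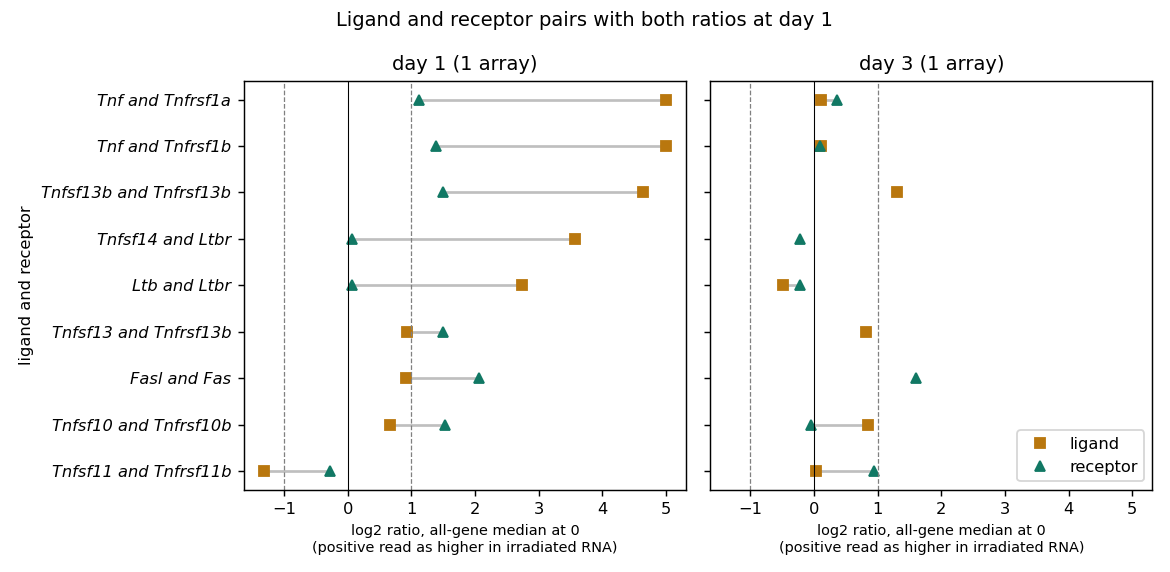
Log2 ratios of ligands (squares) and receptors (triangles) for the 9 pairs with both ratios at day 1, on the day 1 array (left) and the day 3 array (right), with 1 probe on 1 array per symbol and dashed lines at 2-fold. At day 1 the ligand lies to the right for pairs of Tnf, Tnfsf13b, Tnfsf14 and Ltb, and the receptor for the other 4 pairs, such as Fas (2.07 against 0.92 for Fasl). At day 3 most symbols lie within 2-fold.

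At 3 days after irradiation few members stood apart from the unirradiated cells, and those that did were higher. Of 25 with a ratio, 4 passed the 2-fold rule as higher and 0 as lower, where 7.35% of 11404 genes were higher and 6.85% lower. The family's median was 0.19, and 18 of 25 members lay above 0. With ribosomal protein genes at 0, the median was 0.71, 24 of 25 lay above 0 with Relt the exception, and 8 were higher, the added ones being Cd27 (1.04), Tnfrsf11b (1.47), Tnfsf10 (1.38) and Tnfsf13 (1.34).

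Eda2r, the receptor for the A2 form of ectodysplasin, was the highest member at day 3, at 2.0 (4.0-fold, rank 94 of 11404). It had no ratio at day 1. Fas was next at 1.61 (3.05-fold, rank 241). Of the other p53 targets, 12 of 22 passed 2-fold on the same array (median 1.09), while the third textbook target in the family, Tnfrsf10b, was at -0.04. The sign of the ratio was read from this p53 list, so its median lying above 0 is no separate support. Endothelial genes (17 of 19 higher, 1 lower) and adipocyte genes (8 of 12 higher) also stood high on this array, while the pan-leukocyte median was -0.24. The part of these lists in the values of Eda2r and Fas was not tested.

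Tnfsf13b remained higher at day 3, at 1.30 (2.46-fold), and Tnfsf9 was 2.12-fold higher at 1.08, the nearest of the 4 to the 2-fold line. Macrophage genes had a median of 0.82 on this array, and 4 of 10 passed 2-fold. Their part in these values was not tested. Just below 2-fold lay osteoprotegerin, Tnfrsf11b, at 0.94, Tnfsf10 at 0.86 and Tnfsf13 at 0.81. The remaining death domain receptors lay between -0.04 (Tnfrsf10b) and 0.37 (Tnfrsf1a), with Tnfrsf21 at 0.21 and Ngfr, the low-affinity neurotrophin receptor, at 0.01.

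Leukocyte receptors that had been high at day 1 were near 0 at day 3: Cd27 at 0.51, Tnfrsf18 at 0.19 and Tnfrsf1b at 0.10. Tnfrsf4, or OX40, which had no ratio at day 1, was at 0.16. Cd40 stood at 0.30, Tnfrsf12a at 0.26, Ltbr at -0.23 and Tnfrsf23 at -0.07. Among the ligands, Tnf was at 0.12, Tnfsf11 at 0.04 and Tnfsf8 at -0.35. The 3 lowest members were Relt (-0.72), Ltb (-0.49) and Tnfrsf19 (-0.37), all within 2-fold.

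Between the arrays, 22 members could be compared, and more of them stood lower at day 3 than at day 1. The difference, day 3 minus day 1, was at least 2-fold towards lower in 8 members and towards higher in 3, with a median of -0.39. Over 9800 genes with both ratios, 16.8% were lower and 12.1% higher. Both ratios contain unirradiated RNA, which may be one extract, and the difference carries the unmeasured error of both arrays.

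Tnf fell by 4.89 on the log2 scale (29.6-fold), the furthest of the family, from 5.0 to 0.12. Tnfrsf18 fell by 3.37 (10.3-fold) and Tnfsf13b fell by 3.34 (10.1-fold). Ltb fell by 3.22 (9.32-fold) to a value below 0. The differences were smaller for Relt (-2.37), Cd27 (-1.66), Tnfrsf10b (-1.58) and Tnfrsf1b (-1.29). The median difference of pan-leukocyte genes was -5.56 (11 of 11 past 2-fold towards lower) and that of macrophage genes -2.03 (6 of 10), both larger in size than the median of the family. How far the leukocyte genes account for the fall was not tested.

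Tnfsf11, Tnfrsf11b and Tnfrsf19 were the 3 members that stood at least 2-fold higher at day 3 than at day 1. They make up 13.6% of the 22 members compared, close to the 12.1% of all genes, so the count does not set the family apart. Tnfsf11 differed by 1.36, from -1.32 to 0.04, and Tnfrsf11b by 1.22, from -0.28 to 0.94. RANKL and its decoy thus moved the same way between the arrays, by 2.56-fold and 2.33-fold. Tnfrsf19 differed by 1.09, from -1.47 to -0.37, and by 0.91 with the density peak of each array at 0. The median difference was 1.0 for mesenchymal stromal genes (7 of 13 past 2-fold towards higher), 0.59 for osteoblast genes (2 of 11 higher, 1 lower) and -0.85 for osteoclast genes (1 of 7 higher, 1 lower). It was larger for endothelial genes, at 1.31 (12 of 17 higher), and stood at 1.06 for adipocyte genes (6 of 10 higher, 1 lower). The part of these cell types in the 3 values was not tested.

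Of the 14 members higher at day 1, 10 had a ratio at day 3, and among these Fas had the smallest difference, at -0.46. Fas and Tnfsf13b, 2 of 22 members, were at least 2-fold higher on both arrays, as were 2.76% of the 9800 genes. By contrast 9 of the 22 members were within 2-fold on both arrays: Cd40, Ltbr, Tnfrsf11b, Tnfrsf12a, Tnfrsf21, Tnfrsf23, Tnfsf8, Tnfsf10 and Tnfsf13. Over all genes 64.4% were. Tnfsf10 and Tnfsf13 differed by 0.19 and -0.11 between the arrays, and both were above 0 on each.

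**Figure D3:**
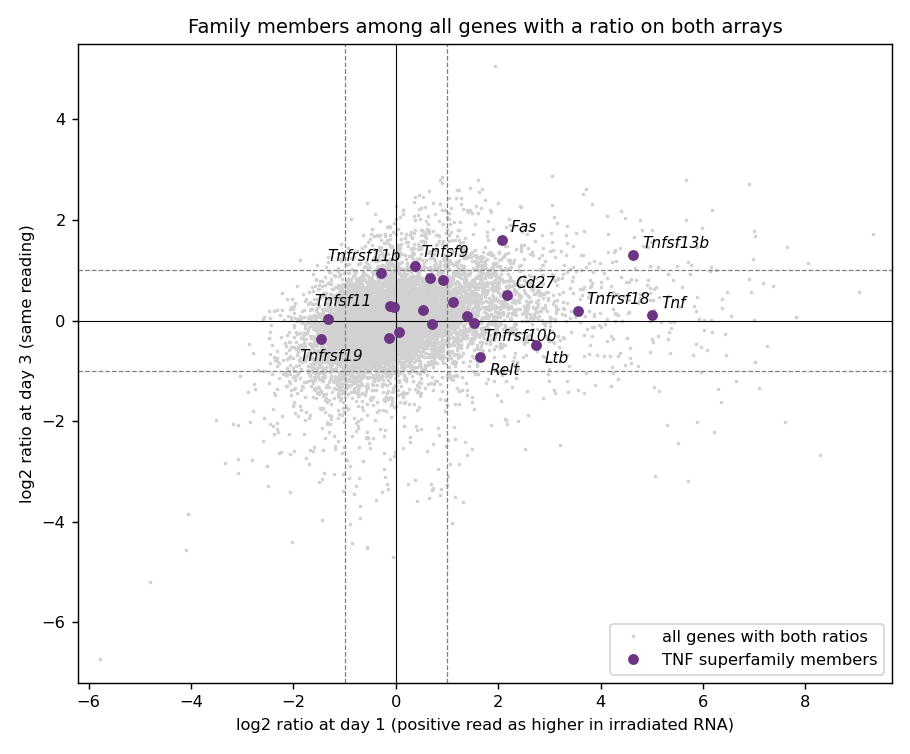
Log2 ratio at day 3 (vertical axis) against day 1 (horizontal axis) for the 22 family members with both ratios (large points) over all 9800 genes (small points), 1 array per axis, dashed lines at 2-fold. Fas and Tnfsf13b lie beyond 2-fold on both axes, and Tnf (5.0, 0.12) and Tnfrsf18 (3.55, 0.19) are high on the day 1 axis alone. No member is at least 2-fold lower on the day 3 axis.

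Several members sit side by side in the genome. In the gene table of GRCm38.p6, 18 of the 41 lie in 7 runs with less than 100 kb between neighbours. Neighbours did not stand at like values throughout. Ltb and Tnf were both higher at day 1 (2.73 and 5.0), with Lta, their neighbour, without a ratio. In the run of Cd27, Ltbr and Tnfrsf1a the day 1 values were 2.17, 0.07 and 1.11. Tnfsf9 and Tnfsf14 share a run with Cd70 and stood at 0.37 and 3.56.

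Downstream signalling genes had a share of higher members at day 1 like that of the family. Of 46 adaptors, kinases, caspases and NF-kB genes listed, 39 had a ratio at day 1. Of these, 20 passed 2-fold as higher and 2 as lower (median 1.01), where 19.6% and 11.1% of all genes did. Pan-leukocyte genes were higher in 16 of 16 cases on this array, and their part in these values was not tested. Nfkbie (3.24), an inhibitor of NF-kB that is itself an NF-kB target, Birc3 (2.56), a ubiquitin ligase of the TNF receptor complex, and Casp8 (2.14), the initiator caspase of death receptors, were the highest. Traf4 (-1.22), Fadd (-1.13), the adaptor that links Fas to caspase-8, and Ikbkg (-0.53), the regulatory subunit of the IkB kinase, were the lowest. Casp8 and Fadd, partners in 1 complex, thus lay on opposite sides of 0.

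At day 3, 2 of 36 signalling genes passed 2-fold as higher and 0 as lower (median 0.26), where 7.35% and 6.85% of all genes were, so their share was near the background. They were Mlkl (1.14), the effector of necroptosis, and Traf1 (1.09), an NF-kB-induced adaptor, followed by Relb (0.80). The lowest were Traf4 (-0.66), Fadd (-0.33) and Bid (-0.29), which carries the caspase-8 signal to mitochondria. Between the arrays 11 of 36 passed 2-fold towards lower and 0 towards higher (median -0.66), against 16.8% and 12.1% of all genes, the largest difference being that of Nfkbie at -3.12.

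**Figure D4:**
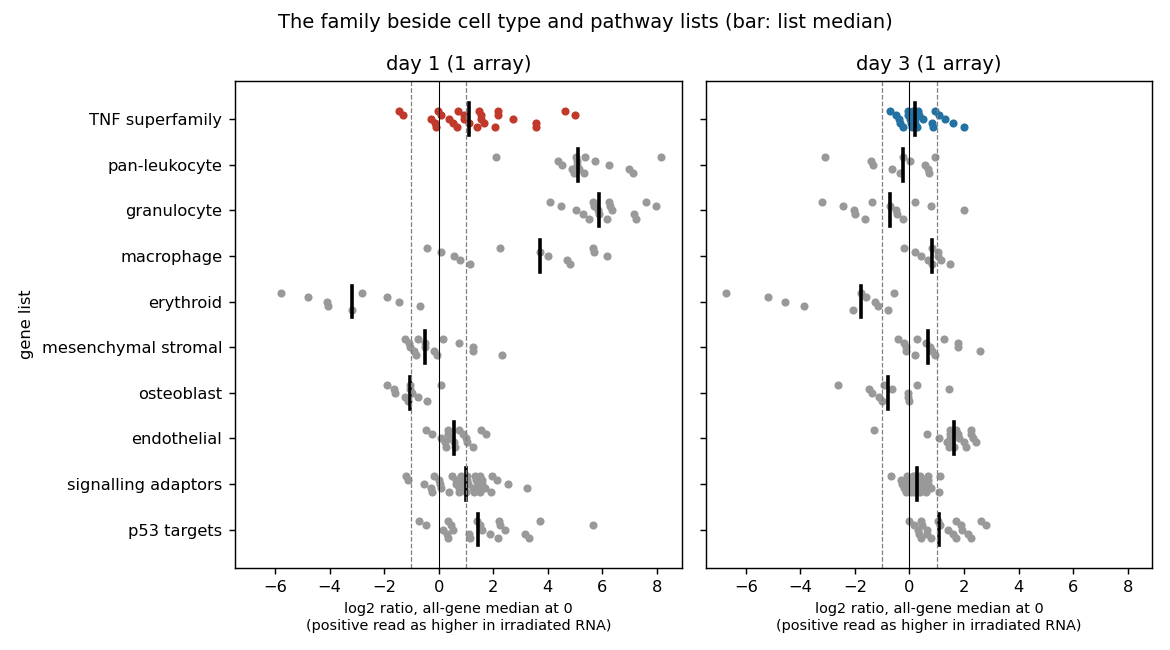
Log2 ratios (horizontal axis) of the TNF superfamily (coloured points) beside lists of cell type markers, signalling adaptors and p53 targets (grey points), at day 1 (left) and day 3 (right). Each point is 1 gene on 1 array, black bars are list medians and dashed lines mark 2-fold. At day 1 the family (median 1.11) lies above 0 but well to the left of pan-leukocyte genes (5.11), and at day 3 its median is 0.19.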

How the data were processed

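Each of 2 two-channel arrays compared irradiated with unirradiated RNA, with amino allyl RNA amplified from each and coupled to Cy5 or Cy3, per the labels' protocols. The deposited values are log ratios, 1 per probe, read as log2. The sources used here do not name the scanner, the background correction, the normalisation or the filter behind empty entries. Over all probes, medians as deposited were 0.0003 and -0.0001 at day 1 and day 3, near 0 on both arrays. What the authors did to these log2 values to bring that about is unknown. No intensities were used, so signal over background is unknown. Precision is limited by the number of arrays.

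Of 23473 probes, 16631 had 1 symbol in the platform annotation, none had several and 6842 had none. Symbols were updated through RefSeq's gene table (GRCm38.p6): 12625 were current, 3921 were older names of 1 gene, and 85 that fit several genes kept their name. Probes of a gene were averaged and the median over genes was subtracted (-0.0119 at day 1, 0.0162 at day 3). Different probes of a gene had a pooled SD of 0.76 (85 genes) and 0.58 (116 genes), which leaves out differences between mice and hybridisations. No p-value is given, since each group has 1 array. Calls rest on a size of 2-fold.

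Members, lists and the rule for the sign were chosen with earlier results of these data known. All members with a ratio are named, and of the signalling genes the 3 highest and 3 lowest on each array. Alternatives changed the centring, the summary of probes, the size rule (1.5-fold and 3-fold), the genes used and the naming of members. Centring, averaging and counting were tested on simulated data. Python 3.11.15, pandas 2.3.3, NumPy 2.4.6, SciPy 1.17.1 and matplotlib 3.10.9 were used.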

Additional observations from a re-analysis of the deposited data

Results flagged for a closer look

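There were 5 members that stood on opposite sides of 0 on the arrays while lying at least 2-fold apart. The difference between the time points was not tested, since each has 1 array. Day 3 minus day 1, on the log2 scale, it was -3.22 for Ltb, -2.37 for Relt and -1.58 for Tnfrsf10b, which were above 0 at day 1. It was 1.36 for Tnfsf11 and 1.22 for Tnfrsf11b, which were below 0 at day 1. Of these 5, only Ltb, Relt, Tnfrsf10b and Tnfsf11 were beyond 2-fold on an array, each at day 1. The side of 0 depends on the centring: with ribosomal protein genes at 0, Ltb stood at 3.24 and 0.04, Tnfrsf10b at 2.05 and 0.49 and Tnfrsf11b at 0.23 and 1.47, so that of these 5 only Relt and Tnfsf11 still lay on opposite sides of 0. Under that centring Tnfrsf19, at -0.96 and 0.15, also met the rule. With 1 array per group no sample could be compared with others of its group.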

How the results depend on the processing

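With ribosomal protein genes at 0, which shifted values by 0.51 at day 1 and 0.53 at day 3, 0 members were at least 2-fold lower at day 1 in place of 2, and 8 were higher at day 3 in place of 4. A size rule of 1.5-fold gave 7 higher and 1 lower at day 3. A size rule of 3-fold gave 9 higher and 0 lower at day 1, 2 higher at day 3, and 0 higher between the arrays in place of 3. These follow from the shift or the threshold itself. The other counts stayed within 1.5 times their main value, and the medians kept their sign, although the day 3 median was 0.71 with ribosomal protein genes at 0 in place of 0.19, under the 9 alternatives: 3 other ways of centring, the median or smallest of a gene's probes, genes on both arrays, both size rules, and members by current symbol, which drops Relt. Since each member has 1 probe, the alternatives only shift its value by a constant. Calls of single members changed with the density peak at 0 in 2 cases at day 1 (Fasl and Tnfsf13 became higher) and with ribosomal protein genes at 0 in 7 at day 1 and 4 at day 3. No replicate could be left out, and a dye bias could not be separated because no dye swap was analysed here. No paired analysis was possible because each time point has 1 array and the labels carry no replicate numbers.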
